A study of Mus musculus with 20 samples.

Results

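Between 1 h and 3 h after LPS was added, the RNA content of mouse fibroblasts was remodelled in both directions, and this late step is described here from 4 of the 20 libraries in the series. The 4 were chosen by their labels as the LPS libraries of 1 h (2 libraries) and 3 h (2 libraries), with 1 library of each genotype at each time. LPS, a lipopolysaccharide from the outer membrane of Gram-negative bacteria, is sensed by the receptor TLR4. Through the adaptor MyD88, TLR4 releases NF-kB, a family of transcription factors held back by inhibitor proteins, and through the adaptor TRIF (gene Ticam1) it activates the kinase TBK1 and the factor IRF3, which switch on interferon beta. Secreted interferon beta then acts back on cells through its receptor, the kinases JAK1 and TYK2 and a complex of transcription factors that includes IRF9, which binds interferon-stimulated response elements. Textbook accounts therefore separate an early wave of direct NF-kB and serum response targets from a later wave that needs a secreted messenger.

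The cells were MEFs, primary connective tissue cells of C57BL/6 mouse embryos, kept overnight in low serum before LPS was given at 100 ng/ml. Both genotypes lacked the NF-kB subunit c-Rel (gene Rel). The first is crel-/-, and the second, crel-/-RelA-TA-KI, has a knock-in at the RelA subunit besides and is called the knock-in below. What TA stands for, which residues were changed, and how many embryos or lines lie behind a genotype are not stated by the labels. The remaining 16 libraries hold the same genotypes unstimulated (0 h), after 0.5 h of LPS, or after 0.5, 1 or 3 h of IL-1b or TNF at 10 ng/ml. Labels state no separate cultures. With 1 library per genotype and condition, p-values rest on how far the genotypes depart from a constant difference over conditions. A gene that responds unequally in the genotypes therefore gets a larger SE, and one that did not pass may still change. That spread may also be technical.

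Levels are in CPM, counts scaled to a common size of a library total multiplied by its TMM scaling factor, and where values are given in pairs the crel-/- library comes first and the knock-in library second. The 1 h libraries held 10111428 and 9248151 counts and the 3 h libraries 9550464 and 10924929. The scaling factors of the 3 h libraries were 0.723 and 0.732, against 0.979 to 1.12 in the other 18, so a library's CPM at 3 h lies above its plain share of counts. A count of 3, taken as the detection floor, equals 0.292 and 0.321 CPM at 1 h and 0.435 and 0.375 CPM at 3 h. Collagen and other matrix genes of fibroblasts were abundant throughout, the 23 measured genes of that list summing to 80310 and 77670 CPM at 1 h. Markers of macrophages were also present, the 18 markers summing to 3038 and 3091 CPM at 1 h and 4647 and 3306 CPM at 3 h. Endothelial markers (7 of 12 tested) summed to 56.4 and 70.4 CPM at 1 h and 295 and 168 CPM at 3 h, with Cldn5 and Tie1 at 0 in the 4 libraries. Cartilage and bone markers (9 of 12 tested) summed to 1068 and 967 CPM and then 1410 and 1263 CPM, and neural and Schwann markers (13 of 14 tested) to 212 and 188 CPM and then 191 and 193 CPM. Epithelial markers summed to 6.34 and 8.03 CPM at 1 h and 5.36 and 11.5 CPM at 3 h, with Cldn3 at 0, and skeletal muscle markers to 12.0 and 14.3 CPM and then 12.0 and 19.9 CPM, with Myod1 and Myf5 at 0. The part of these cells in the results was not tested. In bulk RNA, fewer cells of a type and less RNA per cell cannot be told apart. Rel, whose deleted part is not stated and whose counts therefore check nothing, stood at 32.2 and 22.9 CPM at 1 h and 62.0 and 34.9 CPM at 3 h.

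Much of the transcriptome moved. Of 14023 genes tested, 3631 (25.9%) were higher and 3545 (25.3%) were lower at 3 h than at 1 h by edgeR's quasi-likelihood test with genotype as a term and Benjamini-Hochberg adjustment (adjusted p under 0.05). The rises were larger than the falls: 1396 genes rose and 1344 fell by at least 1 on the log2 scale, but 337 rose and 81 fell by at least 3. Both genotypes moved the same way in 3622 of the genes that rose and 3544 of those that fell. Because disagreement between the genotypes enlarges the SE, such agreement largely follows from the test itself. The share over all genes is not given. Both 3 h libraries lay above both 1 h libraries for 4828 (34.4%) of all genes tested, and below them for 5292 (37.7%). Genes that rose by at least 1 took 5.88% and 5.36% of all counts at 1 h and 24.4% and 20.9% at 3 h. The other genes together took a smaller share. Scaled to plain library totals, the median change of all genes was -0.50 in place of -0.02, and 1583 genes were higher and 8349 lower. Calls were then 15.9% higher in place of 50.6%, and 568 of the 3631 rises turned into falls. How much of this shift comes from the genes that rose by at least 1 was not tested. Changes below are relative to the TMM median, and the direction of small rises depends on that choice. The shares of 25.9% higher and 25.3% lower are the background for the counts of every list below in the main TMM fit. Counts under library totals stand instead beside 1583 higher and 8349 lower of 14023 genes, so most genes were lower there. With fewer libraries or no genotype term the background differs again.

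**Figure D1:**
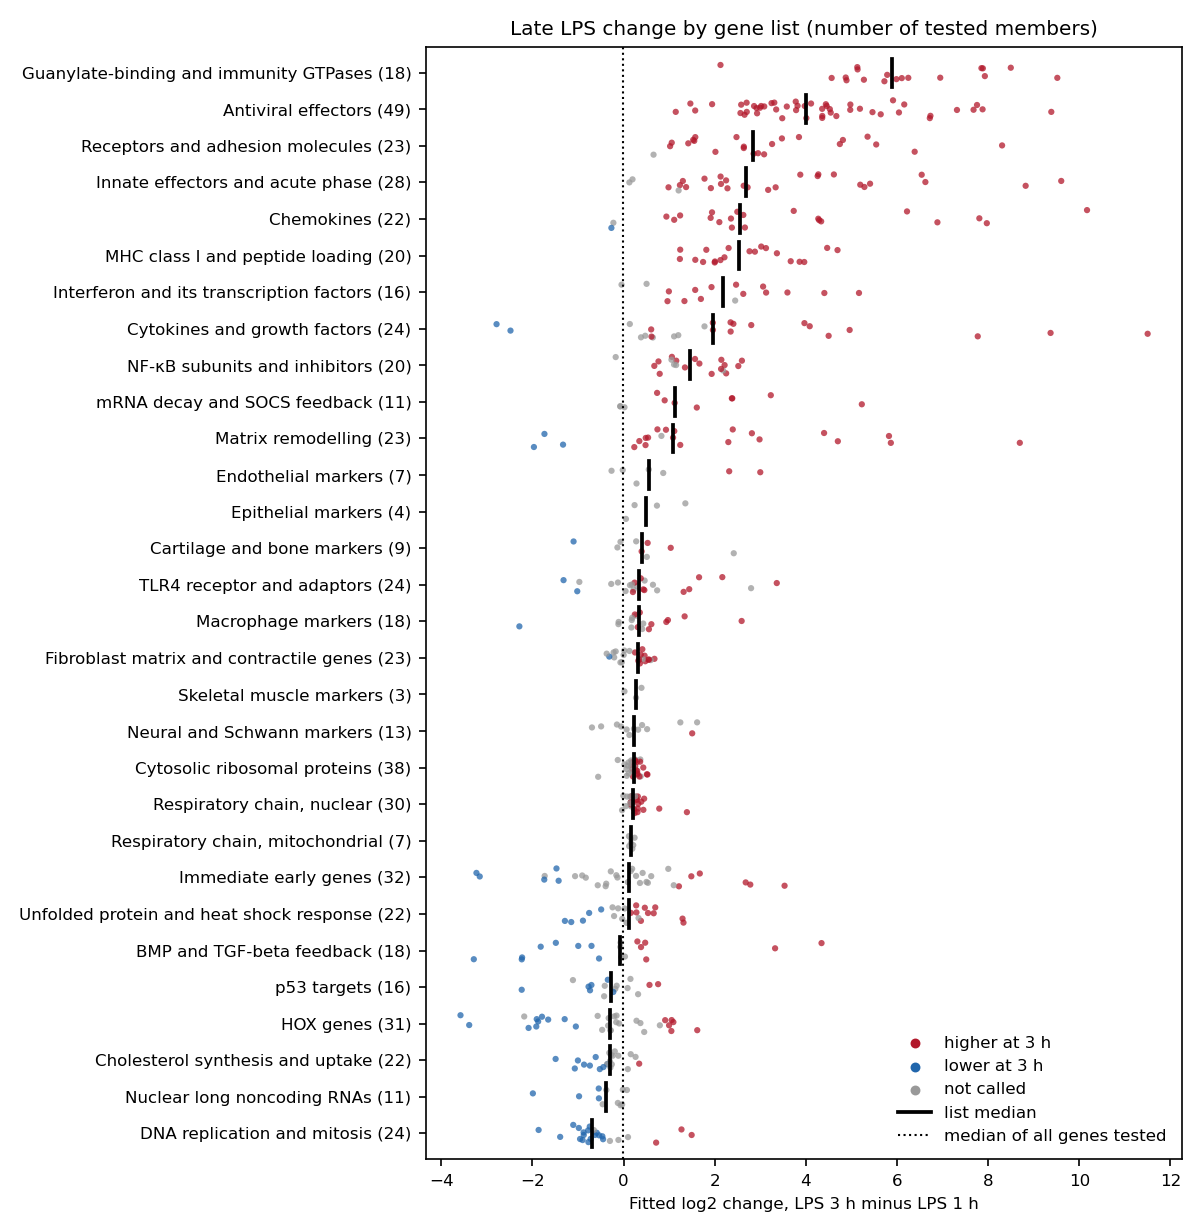
Fitted log2 change from 1 h to 3 h of LPS (horizontal axis) for each tested member of 30 gene lists, coloured by call, with the list median as a black bar and the median of all genes tested as a dotted line. Guanylate-binding proteins and other immunity GTPases (median 5.89) and antiviral effectors (4.01) lie farthest right, and DNA replication genes (-0.69) farthest left. Under library totals every list shifts left with the all-gene median, which goes from -0.02 to -0.50, and the ribosomal, respiratory chain and fibroblast matrix lists then hold 0 members called higher.

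Genes of the interferon arm rose broadly. Ifnb1, the gene of interferon beta (chr4:88522025-88522774, mm10), stood at 10.3 and 15.8 CPM at 1 h and 40.1 and 118 CPM at 3 h. Every 3 h value was above every 1 h value, with the knock-in highest, and the fitted log2 change was 2.47 (SE 0.25, adjusted p = 3.4e-05). Components that carry the interferon signal rose with it: 13 of the 16 measured genes for interferon, its receptor, kinases and factors were higher and 0 lower, with a median log2 change of 2.19 against -0.02 for all genes. Irf7, the interferon-inducible factor that amplifies interferon production, went from 30.8 and 25.4 CPM to 613 and 568 CPM (log2 change 4.41, SE 0.51). Usp18, a negative regulator of the interferon receptor, went from 30.6 and 30.2 CPM to 1057 and 1119 CPM (5.17, SE 0.49). Stat2 (3.06), Irf9 (1.70), Irf2 (3.60) and Irf8 (3.13) rose, as did both receptor chains, Ifnar1 (0.99) and Ifnar2 (1.34), and the kinase gene Jak1 (0.96). Irf3, which acts before interferon and is controlled mainly by phosphorylation, stayed at 32.2 and 28.9 CPM at 1 h and 32.0 and 27.3 CPM at 3 h (log2 change -0.04, SE 0.11, adjusted p = 0.76). Irf1, a factor induced by both NF-kB and interferon, stood at 544 and 41.8 CPM at 1 h and at 1025 and 604 CPM at 3 h and did not pass (2.45, SE 1.01, adjusted p = 0.068).

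Receptor-proximal genes of the TLR4 pathway moved less evenly. Of 24 measured genes, 10 were higher and 2 lower (median 0.34), and under library totals 3 were higher and 8 lower. Without the crel-/- 1 h library or without the crel-/- 3 h library only 3 were higher, and without the knock-in 1 h library 6. Myd88, the adaptor of the NF-kB branch, rose from 45.3 and 35.9 CPM to 476 and 360 CPM (log2 change 3.36, SE 0.27, adjusted p = 2.2e-06). Tbk1, the kinase of the interferon branch, rose from 46.8 and 47.6 CPM to 167 and 132 CPM (1.66, SE 0.13), and Map3k8, a kinase upstream of ERK, also rose (2.17, SE 0.48). In contrast, Ticam1, the gene of TRIF, fell from 36.5 and 51.6 CPM to 18 and 25.4 CPM (-1.02, SE 0.19, adjusted p = 0.00061), and Tab1, a partner of the kinase TAK1, fell from 20.3 and 20.6 CPM to 7.97 and 8.38 CPM (-1.32, SE 0.13). The groups did not overlap for any of these genes. Tlr4 itself (0.46, SE 0.29, adjusted p = 0.21) and its co-receptor Cd14 (0.74, SE 0.32, adjusted p = 0.078) did not pass.

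All 49 measured antiviral effectors, genes induced by interferon whose products block steps of virus replication or sense viral nucleic acid, were higher at 3 h. Both 3 h libraries lay above both 1 h libraries in all 49, the median log2 change was 4.01, and the smallest change was 1.15 (Lgals3bp). The list took 0.336% and 0.318% of all counts at 1 h and 5.28% and 5.64% at 3 h. Rsad2, the gene of viperin, rose from 27.7 and 61.2 CPM to 8278 and 9928 CPM (log2 change 7.68, SE 0.86, adjusted p = 5.2e-05). Ifit1, whose product binds viral RNA caps, rose from 136 and 144 CPM to 8489 and 9812 CPM (6.04, SE 0.62). Ifit1bl1, a relative in the same cluster, rose from 1.27 and 4.28 CPM to 1054 and 2773 CPM, a log2 change of 9.39 (SE 0.52). Mx1 (7.88), Cmpk2 (7.76), Ifit2 (6.73) and the RNA sensor gene Ifih1 (5.46) rose in both genotypes, and the ubiquitin-like Isg15 went from 92.9 and 74.7 CPM to 1107 and 1168 CPM (3.79, SE 0.44). The knock-in change was the smaller in 29 of the 49. The count of 49 held without any 1 of the 4 libraries and under library totals.

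The 18 measured guanylate-binding proteins and immunity-related GTPases, which attack the vacuoles of intracellular microbes, all rose, with a median log2 change of 5.89. Gbp5 rose from 5.07 and 2.14 CPM to 1871 and 844 CPM (log2 change 9.52, SE 1.43, adjusted p = 0.00038). Gbp2 rose from 43.5 and 35.9 CPM to 4948 and 4496 CPM (6.95, SE 1.18), and Igtp from 23.7 and 22.2 CPM to 1783 and 1666 CPM (6.25, SE 0.60). Gbp11 had 1 count in each 1 h library and 40.7 and 38.6 CPM at 3 h, a ratio of 388 (95% counting interval 107 to 3213). For families of near-identical copies (Ifit, Gbp, Oas, Slfn, Tgtp1 with Tgtp2, H2), the split of reads between members is uncertain.

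Promoters of 6 of these genes and chemokines are shown because the interferon-stimulated response element (ISRE) is the site through which the complex that includes IRF9 is known to act. Capitals mark each match to the core GAAANNGAAA on either strand within 250 bases before a RefSeq start, with 30 bases to each side where the window holds them, read 5′ to 3′ on the gene's own strand (GRCm38.p6, the mm10 build).
Ifit1, chr19:34640755-34640843, plus strand: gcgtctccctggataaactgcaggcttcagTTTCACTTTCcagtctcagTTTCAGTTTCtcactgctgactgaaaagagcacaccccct
Ifit1bl1, chr19:34602033-34602102, minus strand: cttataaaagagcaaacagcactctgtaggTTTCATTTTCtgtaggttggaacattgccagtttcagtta
Isg15, chr4:156200845-156200926, minus strand: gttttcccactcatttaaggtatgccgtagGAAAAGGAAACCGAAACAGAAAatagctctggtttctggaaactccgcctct
Rsad2, chr12:26456533-26456602, minus strand: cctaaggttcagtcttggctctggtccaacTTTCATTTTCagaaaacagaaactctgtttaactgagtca
Gbp5, chr3:142496739-142496808, plus strand: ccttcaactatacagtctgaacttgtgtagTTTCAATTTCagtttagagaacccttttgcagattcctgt
Cxcl10, chr5:92349063-92349132, minus strand: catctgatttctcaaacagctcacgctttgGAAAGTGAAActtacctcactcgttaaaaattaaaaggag
Ifit1 holds 2 matches and Isg15 holds 3 that overlap in a single run. The match ends 94 bases before the start in Ifit1bl1, 110 in Rsad2, 155 in Gbp5 and 203 in Cxcl10. The core occurs in 936 of the 27025 genes with a promoter in the RefSeq table (3.46%). It was found in 14 of the 39 antiviral effectors and 9 of the 10 GTPases that the table holds. Since the table holds only 79.6% and 55.6% of those lists, shares over them are void. The 6 genes shown all hold a match, whereas the rising genes Ifit2, Cmpk2, Ifih1 and Cxcl9 hold none in the window. Gbp5 and Cxcl10 also hold a match to the NF-kB consensus within 250 bases before a start, which is not marked. A match is a description of the letters, not of a bound site.

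Genes of MHC class I presentation, which display peptides from inside the cell to T cells, rose without exception (20 of 20 measured, median log2 change 2.53). Nlrc5, the transactivator of MHC class I genes, rose from 16.1 and 13.6 CPM to 396 and 363 CPM (log2 change 4.70, SE 0.50, adjusted p = 3.2e-05). The peptide transporter gene Tap1 rose from 56.4 and 41.4 CPM to 773 and 636 CPM (3.86, SE 0.40), and the immunoproteasome subunit gene Psmb9 from 5.56 and 5.78 CPM to 103 and 75.4 CPM (3.96, SE 0.33). The most abundant member, the light chain gene B2m, rose from 1050 and 902 CPM to 2615 and 2024 CPM (1.24, SE 0.16), and the heavy chain gene H2-K1 from 233 and 173 CPM to 1013 and 636 CPM (2.0, SE 0.30). Groups did not overlap for any of the 20. The promoters of these last genes are shown because MHC class I genes are known to respond to both factor families: capitals mark an ISRE core in B2m and overlapping matches to the NF-kB consensus in H2-K1. B2m also holds an NF-kB consensus within 250 bases before a start, which is not marked.
B2m, chr2:122147518-122147587, plus strand: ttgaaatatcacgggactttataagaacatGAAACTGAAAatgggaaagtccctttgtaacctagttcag
H2-K1, chr17:34000418-34000488, minus strand: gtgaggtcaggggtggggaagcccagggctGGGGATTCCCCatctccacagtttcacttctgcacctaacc
The table holds 17 of the 20 genes of this list, and 8 of those have an NF-kB consensus and 3 an ISRE core in the window. The NF-kB consensus is found in 8.23% of all 27025 genes and in 10.9% of the tested genes that the table holds.

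**Figure D2:**
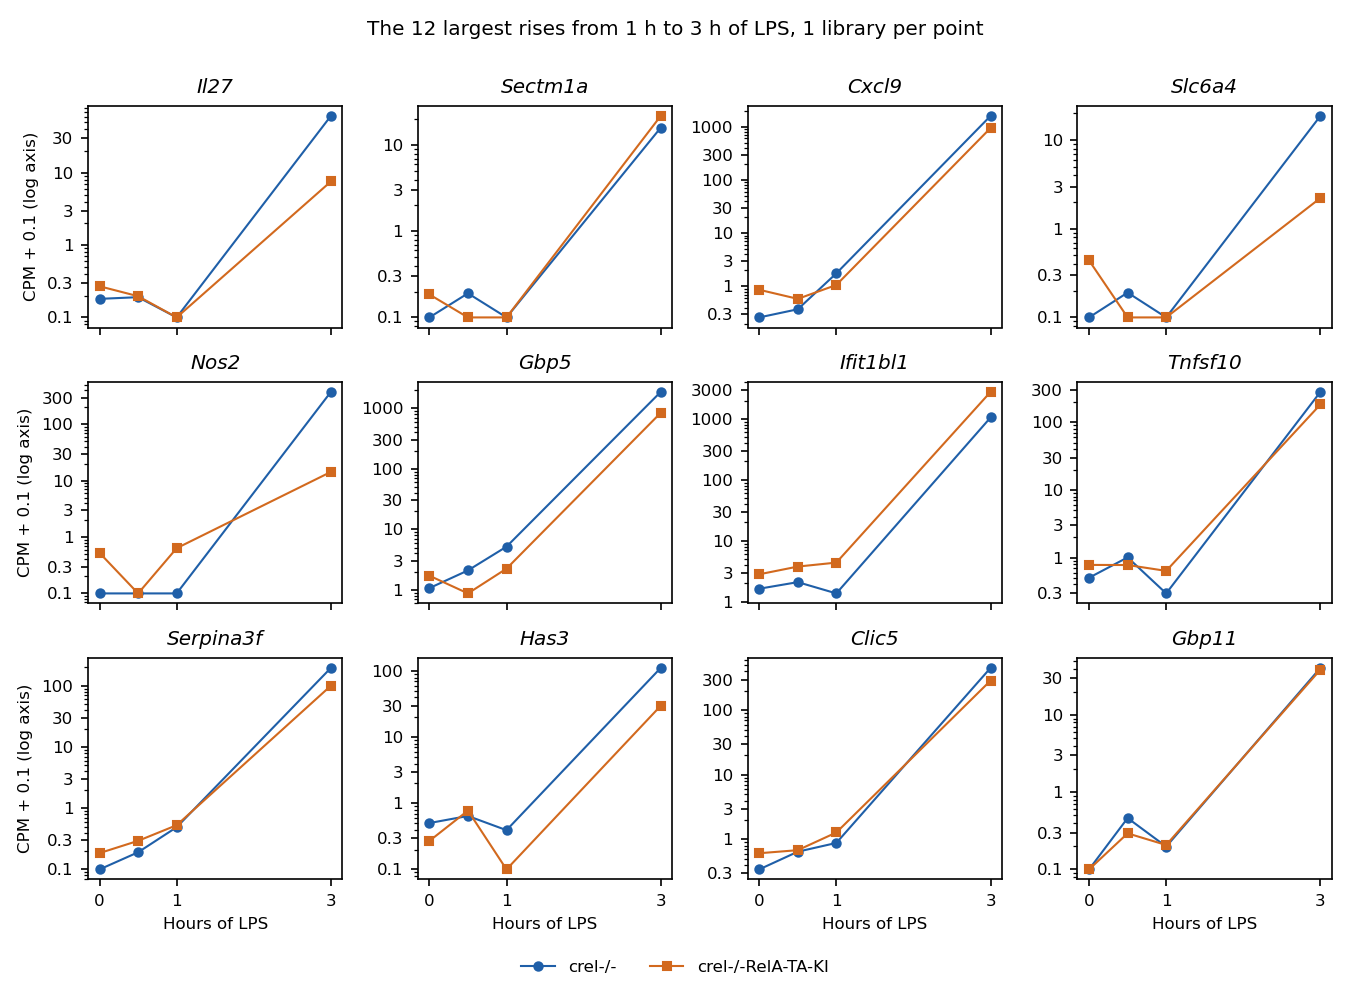
Levels of the 12 genes with the largest rises (CPM + 0.1, log axis) against hours of LPS in crel-/- (blue circles) and the knock-in (orange squares), 1 library per point. The genes are at or under about 5 CPM up to 1 h and rise at 3 h in both genotypes, with Il27, Slc6a4 and Nos2 far lower in the knock-in.

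The 12 largest rises mixed interferon-induced genes with inflammatory products. Cxcl9, a chemokine for activated T cells (chr5:92321347-92328079), rose from 1.66 and 0.963 CPM to 1595 and 945 CPM (log2 change 10.17, SE 0.85, adjusted p = 6.3e-06). Tnfsf10, the death ligand TRAIL, rose from 0.195 and 0.535 CPM to 283 and 184 CPM (9.37, SE 0.65). Il27, which encodes a subunit of the cytokine IL-27, had no count at 1 h and stood at 61.3 and 7.50 CPM at 3 h, at least 212-fold higher. Sectm1a (at least 125-fold higher) and the serotonin transporter gene Slc6a4 (at least 64.0-fold higher, 18.7 and 2.13 CPM at 3 h) also had no count at 1 h. Has3, a hyaluronan synthase, had 3 counts at 1 h and 112 and 29.9 CPM at 3 h, a ratio of 444 (95% counting interval 152 to 2158). Nos2, the inducible nitric oxide synthase, rose from 0 and 0.535 CPM to 378 and 14.3 CPM. Its fitted log2 change of 9.60 has an SE of 1.64 (adjusted p = 0.0041) and averages unequal genotypes, and without the crel-/- 1 h library it was 4.43 (adjusted p = 0.14). Serpina3f (8.82) and the chloride channel gene Clic5 (8.58) completed the set with Gbp5, Ifit1bl1 and Gbp11. Of the 1396 genes that rose by at least 1, 1356 stood at 3 h above their unstimulated level in both genotypes. These genes were picked for high levels in the same 3 h libraries, so part of this majority follows from the choice. The share over all genes is not given.

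NF-kB subunits and inhibitors, most of them targets of NF-kB themselves, rose as a group: 15 of 20 measured were higher and 0 lower (median 1.46). Without the genotype term the count was 9. Nfkb1, encoding p105 and p50, rose from 110 and 99.2 CPM to 995 and 334 CPM (log2 change 2.52, SE 0.50, adjusted p = 0.0021), but did not pass on the 4 LPS libraries alone (2.47, adjusted p = 0.12). Nfkb2 rose from 95.5 and 56.1 CPM to 605 and 169 CPM (2.22, SE 0.48), Rela from 99.1 and 82.1 CPM to 354 and 196 CPM (1.57, SE 0.20), and the adaptor gene Traf1 from 23.6 and 4.92 CPM to 123 and 42.5 CPM (2.60, SE 0.26). The anti-apoptotic ubiquitin ligase gene Birc3 rose by 2.25 (SE 0.40; adjusted p = 0.058 without the genotype term) and Rel by 0.79 (SE 0.17, adjusted p = 0.0012). The classical early feedback genes were already high at 1 h in crel-/- cells: Nfkbia, the gene of IkB alpha, stood at 707 and 62.5 CPM at 1 h and 814 and 240 CPM at 3 h and did not pass (1.05, SE 0.72, adjusted p = 0.25). Tnfaip3, the gene of A20, stood at 521 and 20.4 CPM and then 1189 and 184 CPM (2.19, SE 0.94, adjusted p = 0.078). For both, the knock-in value at 3 h lay below the crel-/- value at 1 h, so the groups overlap.

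The promoters of Nfkb2 and Nfkbia show the sites that give this list its name, with each match to the NF-kB consensus (searched on both strands) in capitals.
Nfkb2, chr19:46304668-46304736, plus strand: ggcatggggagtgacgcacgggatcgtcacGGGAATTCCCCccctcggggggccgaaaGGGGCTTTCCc
Nfkbia, chr12:55492648-55492706, minus strand: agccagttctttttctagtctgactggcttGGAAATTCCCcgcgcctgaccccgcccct
Of the 17 list members in the promoter table, 9 hold the consensus within 250 bases before a start (52.9%), against 8.23% of all genes in the table and 10.9% of the tested genes in it, and 0 hold the ISRE core. Nfkb2 holds 3 matches, some overlapping, and was called; Nfkbia holds 1 and was not.

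Among suppressors of cytokine signalling and regulators of mRNA decay, 8 of 11 measured were higher (median 1.12), and 5 without the knock-in 1 h library. Socs1, an inhibitor of JAK kinases, rose from 12.7 and 12.6 CPM to 440 and 500.1 CPM (log2 change 5.23, SE 0.30, adjusted p = 1.3e-07), Socs2 from 9.94 and 7.38 CPM to 84.1 and 76.0 CPM (3.23, SE 0.28), and Cish from 11.6 and 5.78 CPM to 48.6 and 42.4 CPM (2.39, SE 0.35). Zfp36, the gene of the decay factor tristetraprolin, stood at 815 and 286 CPM at 1 h and 555 and 408 CPM at 3 h (-0.07, SE 0.52, adjusted p = 0.92). Its genotypes moved in opposite directions.

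Secreted signals rose as well. Of 22 measured chemokines, 20 were higher and 1 lower (median 2.56), and 12 were higher without the genotype term. Cxcl10, a chemokine induced by interferon and NF-kB, was among the most abundant RNAs of the 3 h libraries, rising from 202 and 47.9 CPM to 10950 and 8224 CPM (log2 change 6.89, SE 1.30, adjusted p = 0.0016). Ccl5 rose from 6.53 and 0.963 CPM to 888 and 212 CPM (7.81, SE 1.11), Cxcl11 from 0.877 and 0.107 CPM to 158 and 85.4 CPM (7.97, SE 0.46), and the monocyte chemokine gene Ccl2 from 262 and 63.9 CPM to 3202 and 1708 CPM (4.34, SE 1.00). The neutrophil chemokine gene Cxcl2, an early target, stood at 288 and 51.7 CPM at 1 h and 396 and 22.4 CPM at 3 h (-0.22, SE 0.74, adjusted p = 0.82). Cxcl12, a homeostatic chemokine, was the single member called lower (-0.27, SE 0.10), a call lost without any 1 of the 4 libraries (adjusted p from 0.096 to 0.16).

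Of 24 measured cytokines and growth factors, 15 were higher and 2 lower (median 1.96), falling to 9 higher without the knock-in 1 h library or without the genotype term. Il6 rose from 1.85 and 0.749 CPM to 339 and 183 CPM (log2 change 7.77, SE 0.92, adjusted p = 7.1e-05). Il15, a growth factor for NK cells, rose from 2.73 and 3.10 CPM to 119 and 67.3 CPM (4.96, SE 0.40), and Il33, an alarmin, from 2.34 and 2.89 CPM to 39.3 and 49.9 CPM (4.08, SE 0.29). Il1b stood at 126 and 4.82 CPM at 1 h and 671 and 34.6 CPM at 3 h (2.41, SE 0.62, adjusted p = 0.0085), so that its groups overlapped across genotypes. It did not pass without the crel-/- 3 h library (1.63, adjusted p = 0.16) or the knock-in 1 h library (1.99, adjusted p = 0.056). Tnf, an early cytokine, stood at 360 and 66.1 CPM and then 902 and 115 CPM and did not pass (1.11, SE 0.45, adjusted p = 0.065). Gdf15 (-2.48, SE 0.61) and Tnfsf9, the ligand of 4-1BB (-2.79, SE 0.92), fell. Tnfsf9 did not pass without the crel-/- 1 h (-1.93, adjusted p = 0.22), the crel-/- 3 h (-2.07, adjusted p = 0.25) or the knock-in 3 h library (-3.27, adjusted p = 0.055).

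Receptors and adhesion molecules were higher in 22 of 23 (median 2.85), and in 14 without the genotype term. Cd274, the checkpoint ligand PD-L1, rose from 3.70 and 4.07 CPM to 969 and 1440 CPM (log2 change 8.31, SE 0.51, adjusted p = 5.5e-07), the knock-in lying above crel-/-. Cd40 rose from 2.83 and 0.428 CPM to 115 and 25.6 CPM (5.35, SE 0.43) and Vcam1, an adhesion molecule for leukocytes, from 434 and 119 CPM to 2892 and 687 CPM (2.64, SE 0.65). Icam1 went from 171 and 30.7 CPM to 1622 and 98.4 CPM (2.64, SE 0.83, adjusted p = 0.023), and the 3 h knock-in value lay below the 1 h crel-/- value. Icam1 did not pass without the crel-/- 1 h (adjusted p = 0.13), the crel-/- 3 h (adjusted p = 0.18) or the knock-in 1 h library (adjusted p = 0.080). The formyl peptide receptor gene Fpr2 had 1 count at 1 h and 9.42 and 1.38 CPM at 3 h, a ratio of 100.0 (95% counting interval 17.4 to 4002).

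Innate effectors and acute phase genes were higher in 25 of 28 (median 2.68), and the knock-in change was the smaller in 21 of them. Complement C3 went from 31.0 and 2.68 CPM to 904 and 14.5 CPM (log2 change 4.26, SE 0.92, adjusted p = 0.0034), and did not pass without the crel-/- 1 h library (3.29, adjusted p = 0.11) or the crel-/- 3 h library (3.04, adjusted p = 0.068). Saa3, an acute phase protein gene, went from 1.07 to 103 CPM in crel-/- cells and from 0 to 0 in the knock-in. Saa3 is 1 of 9 genes called higher whose genotypes did not move the same way. The others are Aqp3, Chil1, Clec4e, Gpr84, Hcn4, Lad1, Marco and Spib, and the fitted change of each describes crel-/- cells rather than both. None of the 9 passed without the crel-/- 1 h library or without the crel-/- 3 h library (adjusted p from 0.18 to 1). Acod1, the itaconate-producing enzyme, rose in both, from 105 and 3.75 CPM to 1720 and 428 CPM (5.19, SE 0.81), as did Ptgs2, the gene of COX-2 (3.34, SE 0.67), and the pyroptosis gene Casp4 (4.27, SE 0.45).

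Macrophage markers stand beside these immune groups. Of 18, 9 were higher and 1 lower (median 0.33), 5 higher without the crel-/- 1 h library, and under library totals 3 were higher and 6 lower. The highest rise was that of Fcgr1, an interferon-inducible Fc receptor, from 15.6 and 21.4 CPM to 108 and 115 CPM (2.59, SE 0.41). Csf1r (272 and 283 CPM, then 326 and 195 CPM) and Cd68 (136 and 152 CPM, then 189 and 162 CPM) did not pass. Cx3cr1 fell from 72.1 and 72.7 CPM to 21.3 and 9.13 CPM (-2.29, SE 0.25). The knock-in change was below the crel-/- change for 17 of the 18 markers. Their part in the rises of cytokines, chemokines and innate effectors was not tested.

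Matrix remodelling genes were higher in 19 of 23 and lower in 3 (median 1.09), with 11 higher and 4 lower under library totals. All 3 hyaluronan synthases rose: Has2 from 13.7 and 13.5 CPM to 763 and 825 CPM (log2 change 5.87, SE 0.31, adjusted p = 7.3e-08), Has1 from 2.44 and 1.39 CPM to 38.3 and 37.9 CPM (4.40, SE 0.48), and Has3 as above. Tnfaip6, which cross-links hyaluronan, rose from 34.7 and 20.01 CPM to 216 and 201 CPM (2.98, SE 0.19). The collagenase gene Mmp13 rose from 18 and 14.7 CPM to 1460 and 506 CPM (5.82, SE 0.66), and its inhibitor Timp1 from 116 and 93.9 CPM to 653 and 459 CPM (2.40, SE 0.30). The plasminogen activator gene Plau fell from 147 and 132 CPM to 38.4 and 33.4 CPM (-1.97, SE 0.31), and the aggrecanase gene Adamts1 fell with it (-1.74, SE 0.39). Of 23 structural matrix and contractile genes, 11 were higher and 1 lower (median 0.32), 7 higher without the genotype term, and 0 higher and 11 lower under library totals. The most abundant collagen gene, Col1a1, went from 21170 and 19610 CPM to 28810 and 27340 CPM (0.46, SE 0.11), a change that becomes -0.02 under library totals.

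**Figure D3:**
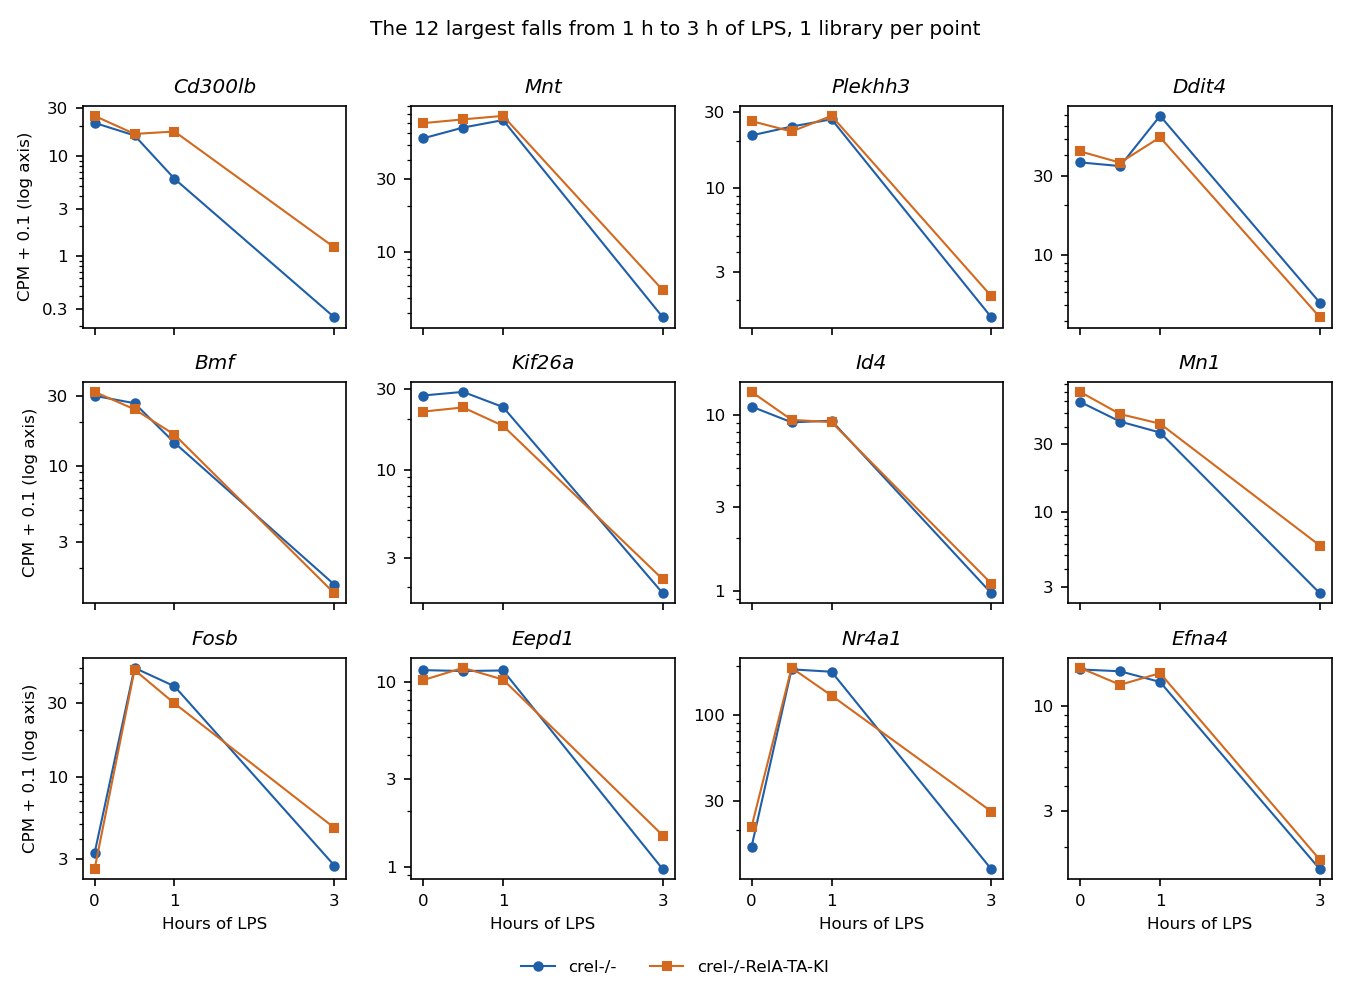
Levels of the 12 genes with the largest falls (CPM + 0.1, log axis) against hours of LPS in crel-/- (blue circles) and the knock-in (orange squares), 1 library per point. All drop from 1 h to 3 h in both genotypes. Fosb and Nr4a1 do so after a large rise from 0 h, and Ddit4, Mnt and Plekhh3 after a smaller one.

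The 12 largest falls were led by Cd300lb, Mnt and Plekhh3. Mnt, a repressor that competes with MYC for MAX (chr11:74830920-74845725), stood at 72.5 and 77.3 CPM at 1 h and 3.62 and 5.50 CPM at 3 h. All 3 h values lay far below the 1 h values and below the unstimulated 55.1 and 69.2 CPM, and the log2 change was -4.03 (SE 0.16, adjusted p = 6.4e-10). Plekhh3 fell from 27.1 and 28.5 CPM to 1.45 and 2.0 CPM (-3.99, SE 0.21). Ddit4, an inhibitor of mTORC1 (REDD1), fell from 68.7 and 51.0 CPM to 5.07 and 4.13 CPM (-3.70, SE 0.32), and Bmf, a pro-apoptotic BH3-only gene, from 14.2 and 16.2 CPM to 1.45 and 1.25 CPM (-3.49, SE 0.62). The myeloid receptor gene Cd300lb fell from 5.85 and 17.5 CPM to 0.145 and 1.13 CPM (-4.07, SE 0.70), its crel-/- value at 3 h being below the floor. Kif26a (-3.40), Id4 (-3.29), Mn1 (-3.24), Eepd1 (-3.23) and the ephrin gene Efna4 (-3.15) fell too. Of the 1344 genes that fell by at least 1, 1287 stood at 3 h below their unstimulated level in both genotypes. These genes were picked for low levels in the same 3 h libraries, so part of this majority follows from the choice. The share over all genes is not given.

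Immediate early genes, which serum response factor and stress kinases switch on without new protein, did not move as a block: 6 of 32 were higher and 5 lower (median 0.13), and under library totals 5 were higher and 9 lower. The shares over all genes tested were 25.9% higher and 25.3% lower with TMM, so neither count exceeded the background. Fosb fell from 38.2 and 29.6 CPM to 2.61 and 4.63 CPM (log2 change -3.23, SE 0.58, adjusted p = 0.0010), Nr4a1 from 184 and 132 CPM to 11.5 and 25.9 CPM (-3.16, SE 0.76), and Srf, the gene of serum response factor itself, from 81.9 and 84.4 CPM to 21.9 and 27.8 CPM (-1.74, SE 0.15). Opposite to these, Mafk rose from 33.1 and 41.4 CPM to 216 and 299 CPM (2.78, SE 0.21), Klf4 from 87.5 and 97.7 CPM to 259 and 339 CPM (1.67, SE 0.14) and the phosphatase gene Dusp2 by 3.53 (SE 0.65). Egr1 stood at 544 and 189 CPM at 1 h and 343 and 505 CPM at 3 h (0.16, SE 0.60, adjusted p = 0.85), falling in one genotype and rising in the other. The knock-in change exceeded the crel-/- change in 28 of the 32, the medians being 0.45 and -0.59, against -0.014 and -0.031 for all genes tested. Without the crel-/- 1 h library 3 were lower, and without the crel-/- 3 h library 2, Nr4a1 no longer passing (adjusted p = 0.060).

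Genes of DNA replication and mitosis were mostly lower: 17 of 24 fell and 3 rose (median -0.69). Mki67, a proliferation marker, fell from 201 and 208 CPM to 93.5 and 97.0 CPM (log2 change -1.10, SE 0.26, adjusted p = 0.0042), Cdc6, a licensing factor, from 4.19 and 5.67 CPM to 1.16 and 1.5 CPM (-1.86, SE 0.45), and Tk1 from 7.50 and 9.85 CPM to 3.62 and 3.00 CPM (-1.39, SE 0.44). Those that rose were Ccne1, the gene of cyclin E1 (15.1 and 18.2 CPM to 46.8 and 46.9 CPM, 1.49, SE 0.14), Mcm6 (1.27, SE 0.19) and Pcna (0.71, SE 0.12). The other Mcm genes measured, Mcm2, Mcm3, Mcm4, Mcm5 and Mcm7, all fell. The number lower dropped to 7 without the crel-/- 3 h library, 10 without the knock-in 1 h library and 11 without the crel-/- 1 h library. Without the crel-/- 3 h library Mcm2 (adjusted p = 0.090), Mcm4 (0.23), Mcm5 (0.062) and Tk1 (0.074) did not pass. Mcm4 did not pass without the crel-/- 1 h (0.063) or the knock-in 1 h library (0.054) either, nor Tk1 without the knock-in 1 h (0.11) or the knock-in 3 h library (0.098).

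Targets of p53 were split, 2 of 16 higher and 6 lower (median -0.29), and 1 higher and 13 lower under library totals. Beside these counts with TMM stand 25.9% higher and 25.3% lower over all genes tested. Cdkn1a, the gene of p21, rose from 464 and 393 CPM to 772 and 676 CPM (log2 change 0.76, SE 0.12), whereas Sesn1 fell from 53.2 and 49.8 CPM to 9.13 and 12.5 CPM (-2.23, SE 0.40). Cholesterol synthesis and uptake genes were lower in 9 of 22 and higher in 1 (median -0.31), and lower in 19 and higher in 0 under library totals. Insig1, the sterol-sensing brake on SREBP, fell from 73.3 and 69.1 CPM to 25.2 and 25.5 CPM (-1.49, SE 0.13, adjusted p = 9.0e-07). Of 22 unfolded protein and heat shock genes, 10 were higher and 5 lower (median 0.11), 6 higher without the knock-in 1 h library, and 2 higher and 11 lower under library totals. The heat shock co-chaperone gene Dnajb1 rose by 1.31 (SE 0.14) and Hmox1, heme oxygenase 1, from 127 and 148 CPM to 192 and 521 CPM (1.29, SE 0.27), while Herpud1 fell by 1.29 (SE 0.12).

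HOX genes encode positional identity along the body and limb axes. Of 31 measured, 6 were higher and 10 lower (median -0.29), 2 higher without the genotype term, and 5 higher and 20 lower under library totals. With TMM, 25.9% of all genes tested were higher and 25.3% lower, so the counts of the whole list lay near the background. In the Hoxa cluster 8 of 11 were lower and 0 higher, in Hoxb 0 of 8 lower and 4 higher, in Hoxc 1 of 7 each way and in Hoxd 1 of 5 each way; a difference between clusters was not tested. Hoxa10 fell from 46.1 and 39.7 CPM to 12.3 and 14.9 CPM (log2 change -1.65, SE 0.21, adjusted p = 2.7e-05), Hoxa9 from 13.7 and 16.5 CPM to 4.20 and 3.88 CPM (-1.91, SE 0.22), and Hoxa11 from 20.2 and 18.7 CPM to 3.33 and 7.75 CPM (-1.79, SE 0.24). Hoxa3 went from 3.31 and 3.32 CPM to 0.290 and 0.250 CPM, values at 3 h below the floor (-3.58, SE 0.35). The Hoxb genes that were higher were led by Hoxb2, from 5.17 and 3.75 CPM to 10.9 and 17.8 CPM (1.62, SE 0.39; without the knock-in 1 h library 1.08, adjusted p = 0.064). Hoxd13, the most abundant HOX gene here, rose from 174 and 162 CPM to 321 and 373 CPM (1.05, SE 0.13, adjusted p = 3.0e-05), while Hoxd9 of the same cluster fell by 1.05 (SE 0.25).

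**Figure D4:**
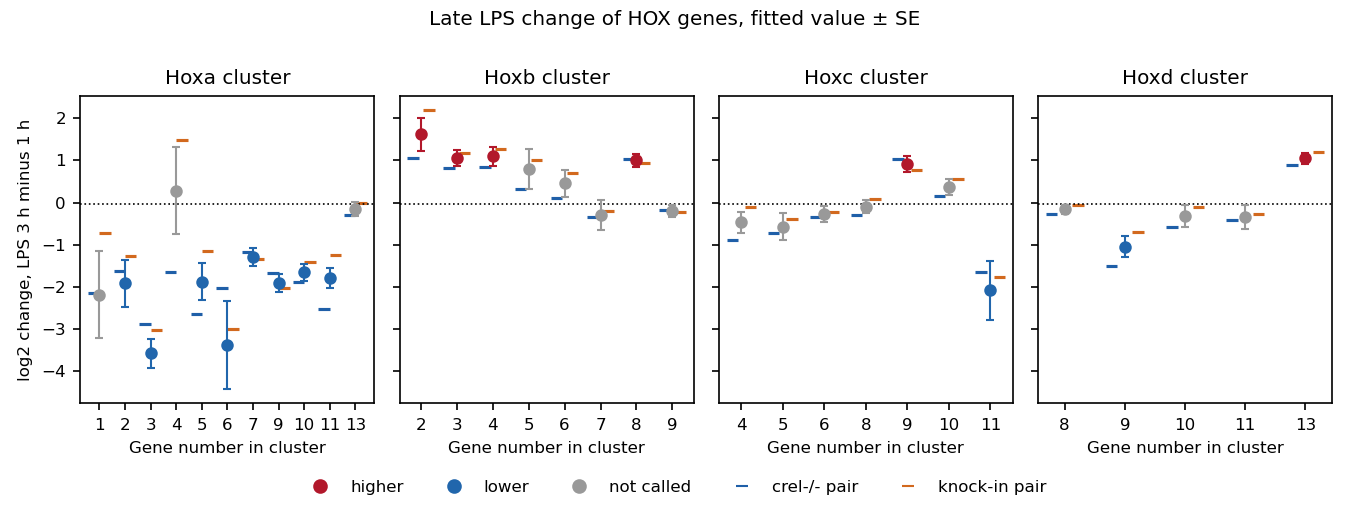
Log2 change from 1 h to 3 h of LPS (vertical axis) for the tested genes of the 4 HOX clusters in order of gene number, as the fitted value ± SE coloured by call, with the crel-/- pair (blue dash) and knock-in pair (orange dash) beside it. Hoxa genes lie mostly below the dotted all-gene median and 4 Hoxb genes above it. Under library totals 5 HOX genes remain higher and 20 are lower.

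Feedback genes of BMP and TGF-beta signalling, the pathways that pattern limbs and matrix, moved strongly both ways (6 of 18 higher, 8 lower, median -0.07; 2 higher and 12 lower under library totals). Nog, the gene of the BMP trap noggin, rose from 1.46 and 2.03 CPM to 44.2 and 27.8 CPM (log2 change 4.34, SE 0.39, adjusted p = 1.3e-06), and Bambi, a decoy receptor, from 13.2 and 12.7 CPM to 143 and 117 CPM (3.33, SE 0.12, adjusted p = 5.3e-10). Among classical BMP target genes, Id1 fell from 35.5 and 33.4 CPM to 11.2 and 13.4 CPM (-1.49, SE 0.16), Id2 from 110 and 161 CPM to 34.1 and 23.6 CPM (-2.23, SE 0.38), and Smad6, an inhibitory SMAD gene, from 22.3 and 15.3 CPM to 4.78 and 3.25 CPM (-2.23, SE 0.30). Id3 did not pass (113 and 94.4 CPM, then 132 and 73.4 CPM). The ligand gene Bmp4 fell by 0.99 (SE 0.26), and Bmp2, counted among growth factors, rose from 12.8 and 10.4 CPM to 51.0 and 64.9 CPM (2.35, SE 0.33). Without the crel-/- 3 h library 5 members were lower and Bmp4 did not pass (-0.76, adjusted p = 0.098).

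Housekeeping groups shifted by small amounts whose sign depends on scaling. Of 38 cytosolic ribosomal protein genes, 22 were higher and 0 lower (median 0.22), but 0 higher and 25 lower under library totals. Of 30 nuclear respiratory chain genes, 19 were higher and 0 lower (median 0.22), but 0 higher and 18 lower under library totals. On the 4 LPS libraries alone 8 ribosomal and 3 respiratory chain genes were higher. Leaving out the crel-/- 3 h library gave 13 and 11. Leaving out the knock-in 1 h library gave 11 and 12, and leaving out that of crel-/- gave 15 and 9. Respiratory chain genes numbered 10 on the 6 LPS libraries and 9 with no filter. None of the 7 mitochondrially encoded genes passed (range 0.12 to 0.24). Kcnq1ot1, an imprinted long noncoding RNA, fell from 13.6 and 15.8 CPM to 3.33 and 4.13 CPM (-1.99, SE 0.23).

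The same 1 h to 3 h step under the other agents served as a comparison. IL-1b gave 1482 genes higher (10.6%) and 1071 lower (7.64%), and TNF 1712 higher (12.2%) and 1465 lower (10.4%). The late change under LPS exceeded the mean of those under IL-1b and TNF for 2842 genes (20.3%) and lay below it for 2724 (19.4%), tested as a difference of changes. All 49 antiviral effectors were above, their medians being 4.01 under LPS, 0.30 under IL-1b and 0.67 under TNF, and so were 18 of 20 MHC class I genes and 13 of 16 interferon signalling genes. Of 22 chemokines 10 were above, and of 28 innate effectors 12. The late change of Il1b was 2.41 under LPS, 3.25 under IL-1b (adjusted p = 0.36) and 1.68 under TNF (adjusted p = 0.25), the latter 2 not passing, and no difference was called (-0.06). Has3 stood between 0.0842 and 0.676 CPM in the 16 libraries outside this step, and its late change was 8.58 (SE 1.33) above the other agents'. For Ifnb1 the fitted changes of the other agents rest on levels near 0 and the difference is not given.

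Falls differed between agents too. Ddit4, Plekhh3, Efna4 and Bmf did not pass under IL-1b or TNF alone, with changes between -0.61 and 0.57, and fell under LPS by 3.15 to 3.99. Differences from the other agents were -3.87 (SE 0.37), -3.82 (SE 0.24), -3.49 (SE 0.30) and -3.42 (SE 0.70) in that order. Fosb, by contrast, fell under all agents (-4.22 under IL-1b and -3.15 under TNF). Nr4a1 fell under IL-1b (-5.35), and its TNF change of -1.98 did not pass (adjusted p = 0.063). The differences of LPS from the other agents did not pass for either gene (0.46 and 0.51).

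**Figure D5:**
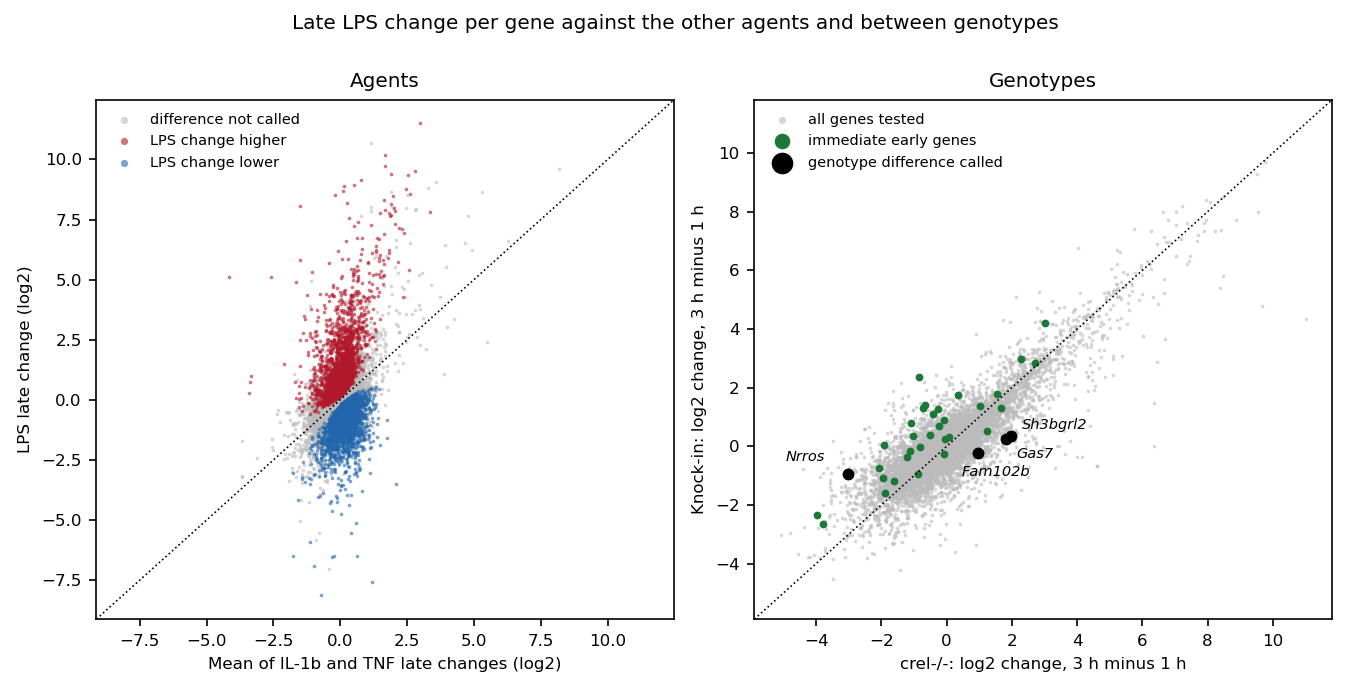
Left, each gene's late change under LPS against the mean late change under IL-1b and TNF (log2), coloured where the difference was called. Right, the change in the knock-in against that in crel-/- cells (log2 CPM, prior count 2), with immediate early genes in green and the 4 genes with a called genotype difference in black. Points spread along the diagonal on the right (r = 0.857 across genes) and much less so on the left.

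Few single genes differed in their late change between the genotypes by test. That test assumes a genotype difference that is constant over the other conditions, and where it is not constant the spread grows. For Nos2 the difference was -10.3 with an SE of 7.24. The number of genes called therefore does not measure how alike the genotypes were. Across genes, which are not independent, the knock-in and crel-/- changes had r = 0.857. Among the 1396 genes that rose by at least 1, the median change was 2.03 in crel-/- cells and 1.76 in the knock-in, which had the smaller rise in 857. Falls were likewise smaller in the knock-in for 834 of the 1344 genes that fell by at least 1. Their medians were -1.53 in crel-/- cells and -1.32 in the knock-in. A difference in the late change was called for 4 of 14023 genes (0.0285%), with 1004 (7.16%) at an unadjusted p under 0.05, in a fit that has 1 library per genotype and time and 7 residual degrees of freedom taken from the other conditions. Many lists leaned one way. The change was higher in the knock-in for 28 of 32 immediate early genes (medians -0.59 in crel-/- cells and 0.45 in the knock-in). It was also higher for 10 of 11 mRNA decay and SOCS genes, 10 of 11 long noncoding RNAs and 23 of 31 HOX genes. It was lower for 17 of 18 macrophage markers (medians 0.49 and 0.093), 20 of 24 TLR4 genes and 23 of 30 nuclear respiratory chain genes. For p53 targets it was 8 and 8. Medians over all genes tested were -0.031 and -0.014. The share of all genes leaning each way is not given, so whether any lean is particular to a list was not tested. Gas7, a growth arrest gene of the cytoskeleton, went from 103 to 366 CPM in crel-/- cells and from 116 to 138 CPM in the knock-in (difference -1.59, SE 0.19, adjusted p = 0.022). Sh3bgrl2 went from 32.5 to 129 CPM and from 36.7 to 47.4 CPM (-1.62, SE 0.22, adjusted p = 0.036). Fam102b went from 128 to 250 CPM and from 127 to 110 CPM (-1.18, SE 0.17, adjusted p = 0.047). Nrros, a myeloid gene that tethers latent TGF-beta, fell in both, from 36.3 to 4.35 CPM in crel-/- cells but only from 31.8 to 16.5 CPM in the knock-in (2.11, SE 0.26, adjusted p = 0.022). Only Gas7 passed with limma-voom (adjusted p = 0.038), and only Gas7 and Nrros without the 0 h libraries. Fam102b did not pass under library totals (adjusted p = 0.064). At 1 h the genotypes lay close together for these 4 genes, whereas for Nfkbia, Tnfaip3 and Il1b the knock-in was far below crel-/- already at 1 h.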

How the data were processed

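Per the labels' protocols, polyA RNA was made into stranded libraries and read as single-end reads. The submitters' processing notes name mm10 and, as tools, featureCounts 1.5.1, STAR, cutadapt 1.12 and DESeq2. Further versions, the annotation, the strand setting and multi-mapping are unknown here (not given in the sources used here), and counts of near-identical, overlapping or antisense genes are uncertain. The authors deposited whole-number counts for 45706 genes, not normalized, of which 45143 (98.8%) matched a symbol.

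Tests covered 14023 genes, those reaching 1 CPM in 2 or more libraries. Counts were fitted with edgeR 4.0.16 (R 4.3.3, TMM, robust quasi-likelihood, Benjamini-Hochberg, threshold 0.05) in a model with condition and genotype over all 20 libraries (9 residual degrees of freedom, common coefficient of variation 10.6%). The 3 h minus 1 h contrast compares 2 libraries with 2, and the spread comes from departures from a constant genotype difference over all conditions. The genotype difference in the change used interaction terms (7 residual degrees of freedom) and assumes that the genotype difference is constant over the other conditions. Standard errors (SE) were taken as the absolute log2 change over the square root of F. Changes within a genotype use log2 CPM with a prior count of 2. A fold against 0 counts is a lower bound at 3 counts summed over the 1 h libraries, and with 1 to 3 counts the ratio has a 95% interval; both cover only counting error, PCR copies being unmarked. Alternatives were other scalings (RLE, library totals), no filter, DESeq2 1.42.0, limma-voom 3.58.1, fewer libraries, no genotype term and each library left out.

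Members and gene lists were chosen with earlier results of these data known. Named genes are the 12 largest rises and falls among called genes with a mean of at least 5 CPM and the same direction in both genotypes, the 3 largest called members of each list with the pathway's ligands, receptors and factors, the 6 largest differences from the other agents each way, called genotype differences, and Rel, Rela and Ifnb1; not every gene the rule names is reported here. Members called only by their size in a list, genes lost on leaving out a library and other contrasting members were added after their values were seen. Promoters are RefSeq sequences on GRCm38.p6, searched in 250 bases before a start. They cover 10632 (75.8%) of the genes tested.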

Additional observations from a re-analysis of the deposited data

Results flagged for a closer look

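The late change differed between agents, by the edgeR test of the difference itself, for 2842 genes in which the LPS change lay above the mean of the IL-1b and TNF changes and 2724 in which it lay below. On the log2 scale the differences above were 8.58 for Has3, 8.51 for Cxcl9, 7.95 for Timd4, a phosphatidylserine receptor gene, and 7.50 for Ifit1bl1. Fitted differences of 8.53 for Il27 and 8.08 for Slc6a4 rest on 0 counts at LPS 1 h, so their size depends on the prior count. Timd4 had 2 counts at LPS 1 h and stood at 38.1 and 25.8 CPM at 3 h, a ratio of 309 (95% counting interval 85.0 to 2556). The differences below were -3.96 for Cd300lb, -3.87 for Ddit4, -3.82 for Plekhh3, -3.49 for Efna4, -3.48 for Tnfsf9 and -3.42 for Bmf.

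The late change differed between genotypes for 4 genes, with a knock-in minus crel-/- difference of 2.11 for Nrros, -1.18 for Fam102b, -1.62 for Sh3bgrl2 and -1.59 for Gas7.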

How the results depend on the processing

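No paired analysis was possible because each genotype has 1 library per condition and every library carries the number 1, so genotype itself was the block. Scaling mattered most: with library totals in place of TMM, 1583 genes were higher and 8349 lower at 3 h, the median gene moved from -0.02 to -0.50, 568 genes called higher became lower, and Col1a1 stood at -0.016. Against the other agents, totals gave 1251 above and 6547 below. Under every other setting run the counts of higher and lower genes stayed within 1.5 times. Leaving out 1 library gave 2782 to 3381 higher and 2472 to 2927 lower, and against the other agents 2180 to 2668 above and 2108 to 2382 below.

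The genotype difference (1 gene higher and 3 lower) gave 3 and 10 with no filter, 6 and 17 with DESeq2, 0 and 1 with limma-voom, and 1 and 1 over the 18 stimulated libraries, and 1 and 2 under library totals; the cause was not tested. By edgeR, 1004 genes had an unadjusted p under 0.05, 7.16% of those tested.

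Of 148 named genes, 109 kept direction and call in each of the settings run. Of all their 1924 values, 116 no longer passed and 8 reversed. On the 4 LPS libraries alone, Nfkb1 (adjusted p = 0.12), Nfkb2 (0.055), Cxcl10 (0.083), Nos2 (0.083), Acod1 (0.16), Map3k8 (0.15), C3 (0.11), Hmox1 (0.18), Nr4a1 (0.079) and Adamts1 (0.22) were among those that did not pass. Without the genotype term Ccl2 (0.094), Vcam1 (0.14), Birc3 (0.058), Acod1 (0.061) and Il1b (0.23) were among them, and with DESeq2 Il1b (0.072) and Nos2 (0.28). Apart from Col1a1 the reversals came on leaving out a crel-/- library. Leaving out 1 library at a time, Marco ranged from -0.72 to 5.41, Chil1 from -0.13 to 5.40, Lad1 from -3.57 to 5.90, Aqp3 from -1.09 to 5.17, Clec4e from -1.01 to 2.06 and Gpr84 from -5.83 to 2.73. With 2 libraries a time and 1 a genotype, low genes are limited by depth: at 1 h a count of 3 equals 0.292 and 0.321 CPM.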

Other observations

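A gene family that is not one of the lists above also moved together in number. Of 353 tested genes with a symbol of Zfp and a number, the mouse naming for zinc finger proteins, 214 were lower and 29 higher at 3 h, with a median log2 change of -0.74, against 25.3% of all genes lower. This family was picked after its values were seen and was given no test. Of the 7 endothelial markers tested, 2 were higher and 0 lower (median 0.55). Among receptor genes of the vascular endothelial growth factor, Flt1 rose from 14.3 and 16.3 CPM to 189 and 71.7 CPM (log2 change 3.00, SE 0.65, adjusted p = 0.0036; 0.083 on the 4 LPS libraries alone) and Kdr from 8.87 and 17.2 CPM to 69.7 and 54.3 CPM (2.32, SE 0.32). The endothelial genes Vwf (7.02 and 7.60 CPM, then 8.55 and 6.00 CPM) and Tek (7.60 and 6.64 CPM, then 5.65 and 6.13 CPM) did not pass. Of the 9 cartilage and bone markers tested, 3 were higher and 1 lower (median 0.40). Under library totals 1 was higher and 1 lower. Over all genes tested, 25.9% were higher and 25.3% lower with TMM. Of the factors that direct skeletal cell fates, Sox9 (cartilage) rose from 27.4 and 33.7 CPM to 53 and 72.3 CPM (1.03, SE 0.22), and Runx2 (bone) fell from 33.9 and 31.9 CPM to 12.0 and 18.9 CPM (-1.10, SE 0.20).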
